A study of Mus musculus with 4 samples.

Results

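The genes described here encode the machinery by which the yolk sac endoderm takes up protein: the receptors Cubn (cubilin), Amn (amnionless), Lrp2 (megalin) and Fcgrt (the neonatal Fc receptor), the adaptor Dab2 and the chaperone Lrpap1. These 6 genes were chosen by name, out of 21951 protein-coding genes in the GENCODE M21 annotation of GRCm38. Their transcription initiation was read from PRO-seq, a nuclear run-on assay that maps engaged RNA polymerase, in 2 libraries of fetal liver and 2 of yolk sac. All embryos were at stage E14.5 and came from C57BL/6J females mated with males of mixed C57BL/6J and CAST/EiJ background that were picked for carrying CAST/EiJ alleles on chromosome 12 around Dlk1/Gtl2. The sample labels give the strain background as mixed C57BL/6h and CAST/EiJ. Each library was made from the tissue of 6 pooled embryos, so the spread between replicates is that between pools, and whole tissue was used, with all of its cell types. The design asks where initiation at these genes differs between the organs.

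In the mouse yolk sac, the visceral endoderm absorbs maternal protein, lipid and vitamins through clathrin-coated pits before and beside the placenta. Cubilin is a large peripheral membrane protein that binds intrinsic factor with vitamin B12, albumin and apolipoprotein A-I, and it needs the transmembrane protein amnionless to reach the cell surface. Megalin, a giant member of the LDL receptor family, takes up many of the same ligands and lipoproteins. Dab2 links receptor tails to clathrin, and Lrpap1 keeps LDL receptor family proteins free of ligand while they fold. Fcgrt binds immunoglobulin G at acid pH and carries it across cells.

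The data are 1 list of dREG peaks per library. A dREG peak is an interval that a classifier called as a site of transcription initiation, at a promoter or elsewhere. The liver lists held 24863 and 24333 peaks and the yolk sac lists 50525 and 43055. Peaks were called in each library alone, scores are the authors' own and only rank peaks within a list, and the read depth behind them is unknown, so the comparisons of promoter peaks, peak numbers and covered length were repeated with the 24333 highest-scoring peaks of every list ("lists of equal length"). A peak within 500 bp of any annotated start of a gene is called its promoter peak, and its score is given as a percentile, the share of peaks in the same list that score no higher. With 2 libraries against 2, no exact permutation p can fall below 0.33, and p-values measure only the spread between these pools. The tissue labels were checked with marker genes. Erythroid promoters were called at 10 of 10 genes in each liver library and 2 of 10 in each yolk sac library. Visceral endoderm promoters were called at 10 and 8 of 10 genes in liver and 10 of 10 in each yolk sac library. Mesenchymal promoters were called at 7 and 9 of 10 genes in liver and 10 of 10 in each yolk sac library, hepatocyte promoters at 6 of 10 in every library, and trophoblast promoters at 1 of 10 in each liver library and 4 of 10 in each yolk sac library. The liver-only markers included the erythroid genes Gata1, Klf1, Alas2, Hbb-bt, Hbb-bs, Slc4a1 and Ermap, with Cps1 (hepatocyte) and Vwf (endothelium). The yolk-sac-only markers included Hand1 (mesenchyme), Emcn (endothelium), Fgb (hepatocyte list), the macrophage genes Adgre1, C1qa and C1qb, and the trophoblast gene Plac1 (Hand1 is in that list too). The trophoblast genes Prl3d1, Tpbpa and Gcm1 had no promoter peak in any library. At equal list length, hepatocyte promoters were called at 6 of 10 genes in each liver library and 2 of 10 in each yolk sac library, trophoblast promoters at 1 and 2 of 10 in each liver and yolk sac library, and visceral endoderm promoters at 10 and 8 of 10 in liver against 8 and 9, and Fgb, Adgre1, C1qb and Plac1 were no longer yolk-sac-only. A missing peak in whole tissue cannot tell fewer cells of a type from less transcription in each cell.

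RefSeq (GRCm38.p6) gave a sequence for all 6 genes, with 7 start sites. The 250 bases before a start are shown for the genes with peaks in yolk sac only (Cubn, Amn). Also shown are both RefSeq starts of Dab2, of which only the downstream one had peaks, and Lrpap1, with a promoter peak in every library. Each is printed 5′ to 3′ on the gene's strand, and capitals mark the motif matches named below.
Cubn (chr2:13491877-13492126, minus strand): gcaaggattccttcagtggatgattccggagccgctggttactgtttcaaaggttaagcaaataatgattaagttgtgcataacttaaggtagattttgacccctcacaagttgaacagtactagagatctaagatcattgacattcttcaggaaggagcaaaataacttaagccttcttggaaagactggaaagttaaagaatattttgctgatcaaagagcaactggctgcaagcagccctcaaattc
Amn (chr12:111270846-111271095, plus strand): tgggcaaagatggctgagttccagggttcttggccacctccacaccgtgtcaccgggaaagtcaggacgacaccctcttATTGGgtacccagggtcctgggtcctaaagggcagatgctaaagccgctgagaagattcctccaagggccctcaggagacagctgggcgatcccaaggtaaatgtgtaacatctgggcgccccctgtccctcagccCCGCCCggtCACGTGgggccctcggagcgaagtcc
Dab2, upstream start without peaks (chr15:6299539-6299788, plus strand): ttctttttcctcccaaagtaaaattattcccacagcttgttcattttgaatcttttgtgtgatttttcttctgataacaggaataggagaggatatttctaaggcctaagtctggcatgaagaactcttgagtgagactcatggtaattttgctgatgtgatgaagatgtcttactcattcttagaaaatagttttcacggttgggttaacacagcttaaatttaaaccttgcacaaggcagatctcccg
Dab2, downstream start with peaks (chr15:6386498-6386747, plus strand): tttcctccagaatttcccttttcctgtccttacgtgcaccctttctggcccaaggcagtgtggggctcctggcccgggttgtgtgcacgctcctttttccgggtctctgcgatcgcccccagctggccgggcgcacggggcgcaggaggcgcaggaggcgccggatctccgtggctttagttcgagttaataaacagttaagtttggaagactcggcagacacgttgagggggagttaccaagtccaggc
Lrpap1 (chr5:35105700-35105949, minus strand): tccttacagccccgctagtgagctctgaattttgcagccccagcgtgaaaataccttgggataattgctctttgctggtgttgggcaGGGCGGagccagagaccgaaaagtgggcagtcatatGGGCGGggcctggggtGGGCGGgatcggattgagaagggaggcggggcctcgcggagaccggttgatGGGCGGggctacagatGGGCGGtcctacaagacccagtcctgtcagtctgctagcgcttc

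The Cubn sequence was 39.6% G and C with 2 CpG dinucleotides, and 9.16% of 20150 promoter windows in the table had a lower share of G and C. The upstream Dab2 start had 36.8% G and C and also 2 CpG, and 6.02% of windows had a lower share. The downstream Dab2 start had 60% G and C and 17 CpG, Lrp2 had 66.4% and 18, Lrpap1 had 60.8% and 14, and Amn had 61.2% and 11. Fcgrt lay between, with 53.2% and 5 CpG. The median promoter had 56% and 10 CpG. The genes thus share no single base composition, and of the genes with peaks in yolk sac only, Cubn lay far below the median and Amn slightly above it.

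Short motifs were searched on both strands of each 250-base window. The GC box GGGCGG, found in 44.1% of all such promoters, matched 5 times in Lrpap1, 2 times in Lrp2 and 1 time in Amn, there on the other strand. The E-box CACGTG, in 6.78% of promoters, matched only in Amn among these genes, 26 to 21 bases before the start, and the CCAAT box CCAAT, in 35% of promoters, matched in Amn on the other strand. The forkhead motif TGTTTAC, in 2.6% of promoters, matched in Fcgrt on the other strand, 116 to 110 bases before the start. The TATA box TATAAA (11.2% of promoters), the GATA motif AGATAA (8.62%), the HNF4 motif CAAAGTCCA (0.402%) and the HNF1 motif (0.00496%) matched in none of the 7 windows. No listed motif matched in Cubn or at either RefSeq start of Dab2, and no matches overlapped.

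Initiation at the promoters fell into 3 groups. Neither liver library had a promoter peak at Cubn or Amn, and each yolk sac library did. Lrp2 had a promoter peak in every library but liver replicate 2, and Dab2, Lrpap1 and Fcgrt had one in all 4, that is 3 of the 6 genes against 53.8% of coding genes. Yolk-sac-only promoter peaks were thus found at 2 of the 6 genes, where 5.25% of all protein-coding genes had this pattern, and none was liver-only, where 1.01% were. With lists of equal length the yolk-sac-only genes were again Cubn and Amn, against 2.61% of all genes, and Fcgrt lost its promoter peak in yolk sac replicate 1. Without liver replicate 1, or with the higher-scoring 50% of each list, Lrp2 also became yolk-sac-only, for 3 of the 6 genes. The share of all coding genes with this pattern was not computed for either setting, so this rise has no background.

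**Figure D1:**
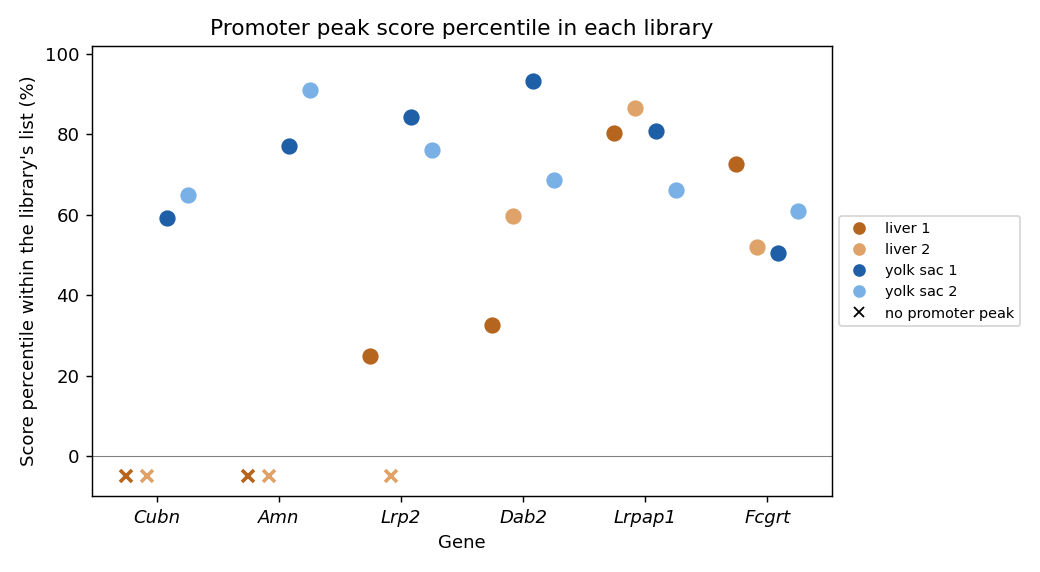
Score percentile of the promoter peak (vertical axis, %) for each of the 6 genes (horizontal axis), 1 point per library, brown for liver and blue for yolk sac; crosses below 0 mark libraries with no promoter peak. The liver points are missing for Cubn and Amn, lie lowest for Lrp2 and Dab2, and mix with the yolk sac points for Lrpap1 and Fcgrt.

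Cubn (ENSMUSG00000026726.10) lies on chromosome 2, minus strand, from 13276338 to 13491813. Its promoter peak spanned 13490801 to 13493802 in yolk sac replicate 1 and 13490451 to 13493852 in replicate 2 and overlapped an exon. The peaks ranked at the 59.3 and 65.0 percentiles, and were 3002 and 3402 bp wide. They were wide rather than high-ranking: among genes with a promoter peak in the same library, 91.0% and 96.3% had a narrower peak, but only 27.7% and 36.9% a lower score percentile. The width was 3202 ± 283 bp (SD, n = 2).

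Amn (ENSMUSG00000021278.7), the partner of cubilin, lies on chromosome 12, plus strand, from 111271095 to 111276426. This is 990 kb beyond the end of Dio3, the last coding gene of the imprinted cluster that the series is about. Its promoter peak spanned 111270151 to 111272052 and 111270451 to 111271802 in the yolk sac libraries, with score percentiles of 77.0 and 91.0 and widths of 1902 and 1352 bp. Among genes with a promoter peak in the same library, 60.5% and 85.5% had a lower score percentile and 60.6% and 34.6% a narrower peak. At Amn the score rank was thus above the width rank in replicate 2 and level with it in replicate 1, whereas at Cubn it was below in both. The locus of 50 kb either side held no liver peak at all, although Traf3 and Cdc42bpb, whose bodies reach into it, had promoter peaks in all 4 libraries.

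Lrp2 (ENSMUSG00000027070.14) lies on chromosome 2, minus strand, from 69424340 to 69586065. The liver replicate 1 peak was 502 bp wide, from 69585901 to 69586402, at the 24.8 percentile, and liver replicate 2 had none. The yolk sac peaks were 5302 and 4552 bp wide, from 69582151 to 69587452 and from 69582651 to 69587202, at the 84.3 and 76.2 percentiles. Both yolk sac values lay far above the single liver value on each measure, and with 1 liver library lacking a peak no test was made. The yolk sac peaks reached 3914 and 3414 bp into the gene but only 1387 and 1137 bp upstream. In width they ranked 70 of 13999 and 98 of 13702 genes with a promoter peak in the same library, ties aside.

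Dab2 (ENSMUSG00000022150.16) lies on chromosome 15, plus strand, from 6299788 to 6440712. It has 13 annotated starts, and in every library the promoter peak covered the start at 6386598, which is 86.81 kb inside the outermost one. This GENCODE start lies inside the window printed above for the downstream RefSeq start (6386498 to 6386747). No library had a peak within 500 bp of the outermost start. The peak was 552 and 1652 bp wide in liver and 5552 and 3552 bp in yolk sac, so that the tissues did not overlap. The means were 1102 ± 778 and 4552 ± 1414 bp (SD, n = 2), a 4.13-fold difference (exact permutation p = 0.33). Liver score percentiles were 32.6 and 59.6 and yolk sac percentiles 93.3 and 68.6, again without overlap, but with lists of equal length they were 31.2 and 59.6 against 86.2 and 44.5, which do overlap. At a further start, liver replicate 2 (6390501 to 6391052) and yolk sac replicate 2 (6390351 to 6391502) had a second promoter peak, in a stretch that the single peak of yolk sac replicate 1 spanned.

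Lrpap1 (ENSMUSG00000029103.16), on chromosome 5, minus strand, from 35091501 to 35105766, showed no separation of the tissues. Its promoter peak ranked at the 80.4 and 86.6 percentiles in liver and the 80.9 and 66.2 percentiles in yolk sac. The means were 83.5 ± 4.34 and 73.6 ± 10.3 (SD, n = 2; exact permutation p = 0.667). With lists of equal length the percentiles were 79.99 and 86.56 against 60.3 and 40.3, so that liver was higher without overlap, as at 52.3% of 10255 genes called in all 4 shortened lists. The widths were 1252 and 1552 bp in liver and 2752 and 852 bp in yolk sac. The yolk sac libraries thus held both the widest and the narrowest peak: in replicate 2 a second, separate peak (35103701 to 35104702) lay where the replicate 1 peak was continuous.

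Fcgrt (ENSMUSG00000003420.8), on chromosome 7, minus strand, from 45092990 to 45103851, had promoter peaks at the 72.7 and 52.1 percentiles in liver and the 50.6 and 60.9 percentiles in yolk sac. The tissues overlapped, at 62.4 ± 14.6 and 55.7 ± 7.29 (SD, n = 2; exact permutation p = 0.667). The widths did not overlap, with 2202 and 1102 bp in liver and 2702 and 2552 bp in yolk sac, a 1.59-fold difference in means (exact permutation p = 0.33).

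**Figure D2:**
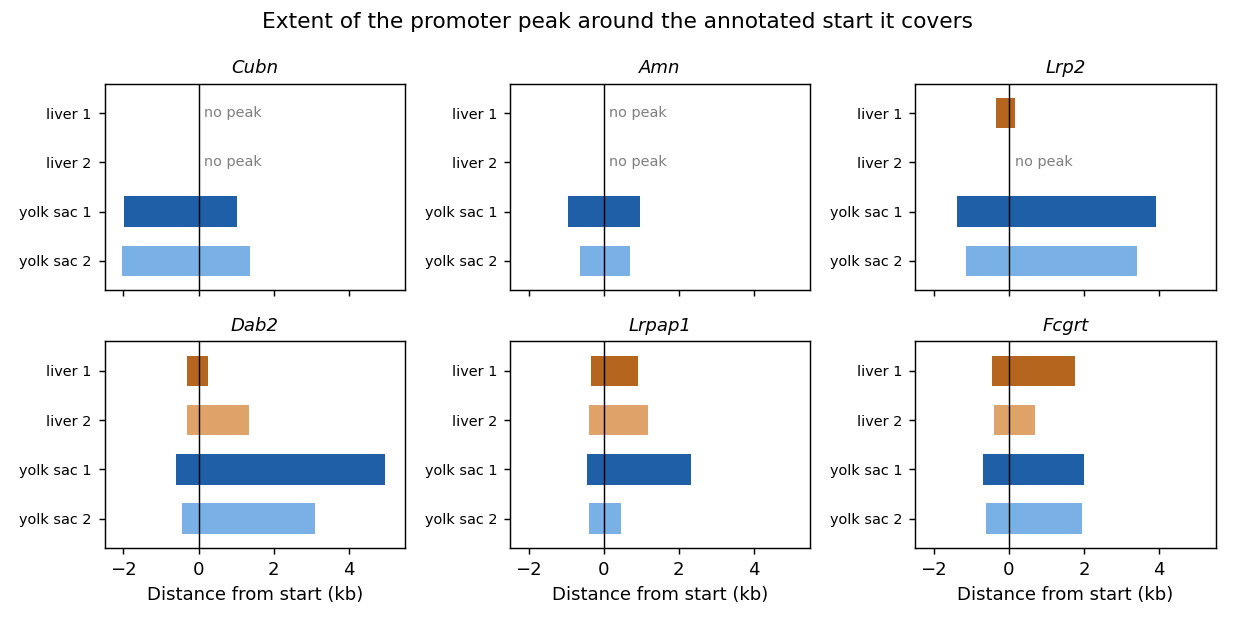
Extent of the promoter peak around the annotated start it covers (horizontal axis, kb; positive values lie inside the gene), 1 bar per library, for each of the 6 genes. The yolk sac bars of Lrp2 and Dab2 reach 3 to 5 kb into the gene, and those of Cubn reach farther upstream than downstream. Liver bars of these 3 genes are shorter than their yolk sac bars or missing.

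Of the 3 genes with a promoter peak in all 4 libraries, 2 (Dab2 and Fcgrt) had wider peaks in each yolk sac library than in each liver one, against 34.5% of 11805 such genes. One of the 3, Dab2, had the higher score percentile in yolk sac, against 34.4%, which is close to that background. Over the 11805 genes, the median promoter peak was 1702 and 1552 bp wide in liver and 1752 and 1602 bp in yolk sac. The widths of Lrp2, Dab2, Cubn and Fcgrt in yolk sac exceeded these medians in both libraries, whereas Amn was near them. Lrpap1 lay above the median in yolk sac replicate 1 (2752 bp) and below it in replicate 2 (852 bp).

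Among the 6 genes, the tissues differed most at Dab2 in the number of peaks inside the gene. Outside its promoter, the body held 0 and 0 liver peaks and 13 and 10 yolk sac peaks, or 11.5 ± 2.12 (SD, n = 2; exact permutation p = 0.33). Apart from promoter peaks the Dab2 body held no liver peak, and all 12 merged regions (peaks of any library joined where they overlap) lay in introns. Between the outermost start and the start in use there were 10 of them, 8 of which were yolk-sac-only. Yolk sac peaks in this stretch numbered 11 and 8. The highest of these in rank, chosen after its values were seen, lay at 6383701 to 6384752, at the 92.4 and 73.1 percentiles. Dab2 ranked 60 of 21951 coding genes for the excess of body peaks in yolk sac, a rank shared by 11 genes, and with lists of equal length it had 0 and 0 against 4 and 5 peaks and ranked 33, shared by 17.

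The flanks of Dab2 had 0 and 0 liver peaks and 4 and 3 yolk sac peaks. The leading yolk-sac-only region of the locus was upstream, at 6259551 to 6261302, at -39.4 kb from the outermost start, with percentiles of 81.7 and 87.9. The only other coding gene in the locus, C9, a terminal complement component, had no promoter peak in any library. Dab2 is also known from macrophages and endothelium. Of 10 macrophage markers, 6 and 5 had promoter peaks in the liver libraries and 10 and 9 in the yolk sac libraries, but 6 and 5 in each tissue with lists of equal length. Of 10 endothelial markers, the liver libraries had 8 and 8 and the yolk sac libraries 9 and 9. The part of these cells in the Dab2 and Fcgrt values was not tested.

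Cubn carried peaks along its 215 kb body in both tissues. The liver libraries had 2 and 3 and the yolk sac libraries 8 and 6, or 2.5 ± 0.707 and 7 ± 1.41 (SD, n = 2; exact permutation p = 0.33). The direction reversed with lists of equal length, to 2 and 3 in liver and 1 and 1 in yolk sac. Cubn shared this liver excess with Fcgrt (2 of 6 genes, against 7.76% of all coding genes). With the higher-scoring 50% of each list the difference, yolk sac minus liver, was 0.5 peaks and did not reverse. The cause was not tested. The region of highest score rank in the gene, chosen after its values were seen, was not at the promoter. It lay in an intron at 13384451 to 13386002, 106.6 kb downstream of the start, and was called in all 4 libraries, at the 61.1 and 46.7 percentiles in liver and the 99.7 and 94.1 percentiles in yolk sac. The means were 53.9 ± 10.2 and 96.9 ± 3.95 (SD, n = 2), and both yolk sac values were the higher, as in 39.3% of 15689 regions called in all 4 libraries. With lists of equal length the percentiles were 60.3 and 46.7 in liver and 99.4 and 89.6 in yolk sac. Liver thus had intronic initiation in Cubn without a peak at its promoter.

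Around Cubn, liver had 3 and 3 flanking peaks and yolk sac 6 and 6, but with lists of equal length 3 and 3 against 2 and 3. A region at 13270001 to 13272152, beyond the end of the gene, covered the start of Rsu1 and was present in all 4 libraries, at percentiles of 83.2 and 81.0 in liver and 95.0 and 93.7 in yolk sac. A yolk-sac-only region lay 2.79 kb inside the gene (13488401 to 13489652), over an exon, and others were found at -5.71 and -43.1 kb from the start. These 3 regions, outside the naming rule and given after their values were seen, had percentiles from 4.92 to 47.6. A flanking region called in all 4 libraries, chosen after its values were seen, lay at -31.9 kb (13523101 to 13524402), at the 41.8 and 36.5 percentiles in liver and the 86.4 and 87.0 percentiles in yolk sac. Both yolk sac values were the higher, as in 39.3% of 15689 regions called in all 4 libraries. With lists of equal length the percentiles were 40.5 and 36.5 in liver and 71.9 and 77.1 in yolk sac.

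Lrp2 had the opposite layout, with no peak in its 162 kb body outside the promoter in any of the 4 libraries. Its flanks had 1 and 1 liver peaks and 7 and 8 yolk sac peaks, or 7.5 ± 0.707 against 1 (SD, n = 2; exact permutation p = 0.33). Upstream of the gene stood 5 yolk-sac-only regions, at -7.06 to -26.7 kb from the start, with no annotated start within 500 bp of any of them. The farthest, at 69612101 to 69613452, was the highest in rank of the locus, at the 89.2 and 97.9 percentiles, above the Lrp2 promoter peak in both libraries. With lists of equal length the flank counts were 1 and 1 against 4 and 4, and Lrp2 ranked 288 of 21951 coding genes, with ties. Downstream of the gene, the 1 liver-only region of the locus was at 69405451 to 69406152, at the 39.6 and 23.7 percentiles. The coding neighbour Dhrs9, a retinol dehydrogenase 19.8 kb from the end of Lrp2, had a promoter peak in yolk sac only, at the 65.8 and 73.4 percentiles.

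**Figure D3:**
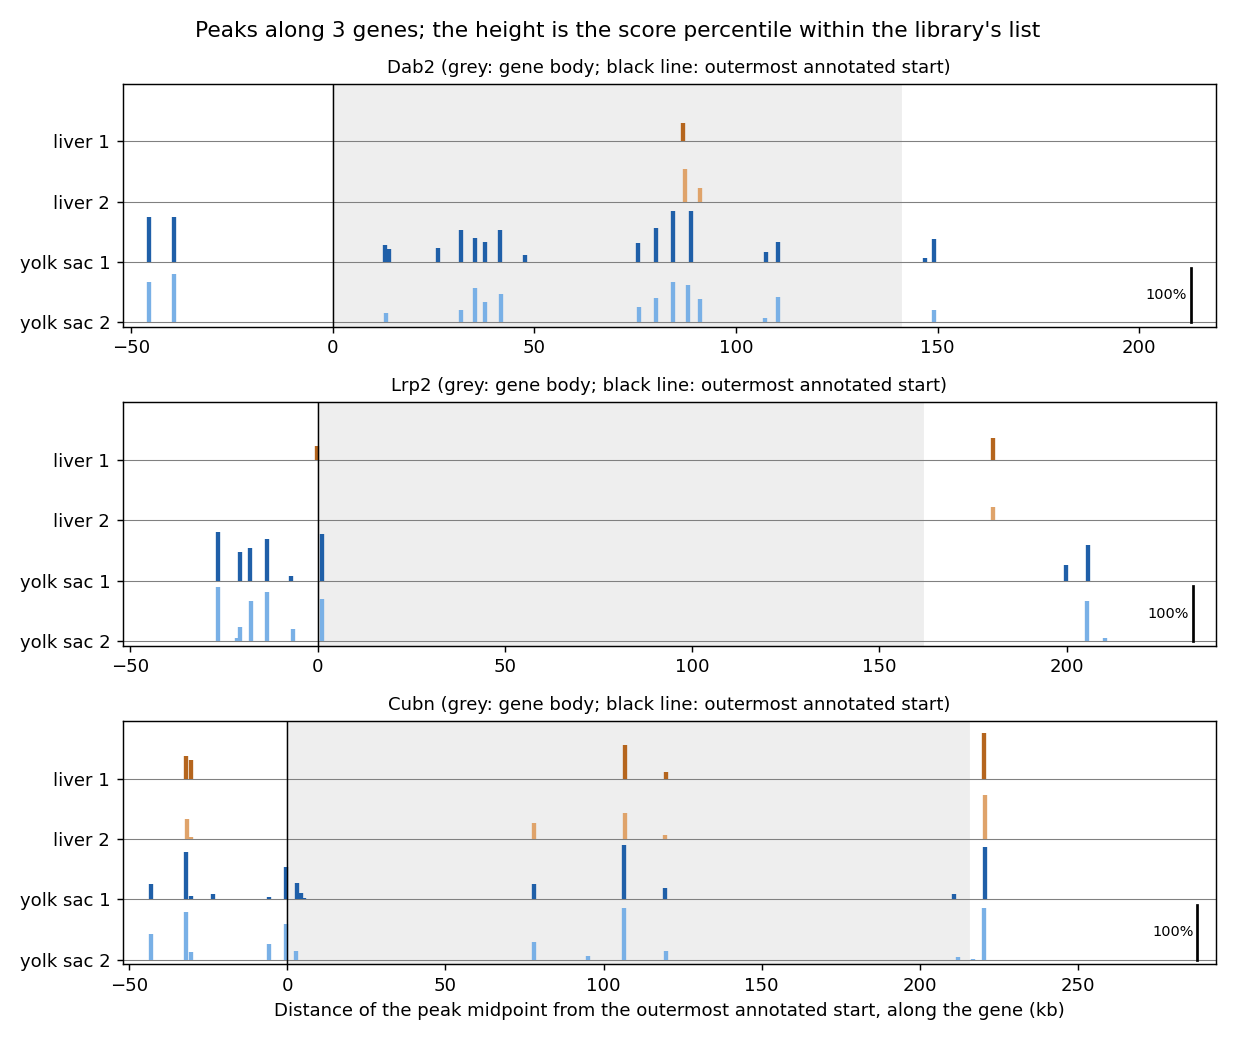
Peaks along Dab2, Lrp2 and Cubn by distance of their midpoint from the outermost annotated start (horizontal axis, kb), 1 row per library, with bar height the score percentile (scale bar 100%). Yolk sac rows show the intronic peaks of Dab2, the upstream row of Lrp2 and the intronic Cubn peak 106.6 kb downstream, which is present in all 4 rows.

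The small genes had few peaks of their own. Amn had no body peak in any library, and 1 flanking peak in yolk sac replicate 2. Lrpap1 had no body peak outside its promoter, and its flanks held 1 and 4 liver peaks and 1 and 1 yolk sac peaks, which overlap. The liver-only region in its locus, at 35042401 to 35043452 (37.4 and 18.0 percentiles), lay at an annotated start of Hgfac, the hepatocyte growth factor activator. Hgfac itself was not liver-only: its highest-scoring promoter peak ranked at the 73.7 and 88.6 percentiles in liver and the 47.6 and 50.6 percentiles in yolk sac. Fcgrt had 1 and 1 liver peaks and 2 and 2 yolk sac peaks in its body, and 9 and 8 against 12 and 13 in its flanks. It lies among 9 other coding genes, each with promoter peaks in all 4 libraries, among them Rcn3, Rpl13a and Flt3l. Its yolk-sac-only regions were at 45093301 to 45094052, over an exon, and upstream at 45115451 to 45116502 and 45117051 to 45117702. The percentiles of the region at 45115451, -12.1 kb from the start, were 59.5 and 86.8, those of the region at 45117051 were 43.0 and 23.9, and those of the exonic region were 24.8 and 5.18. For both counts the direction at Fcgrt reversed with lists of equal length, to 1 and 1 against 0 and 0 in the body and 9 and 8 against 7 and 7 in the flanks. Fcgrt was then the 1 gene of 6 with more flanking peaks in each liver library, against 22.1% of all coding genes.

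**Figure D4:**
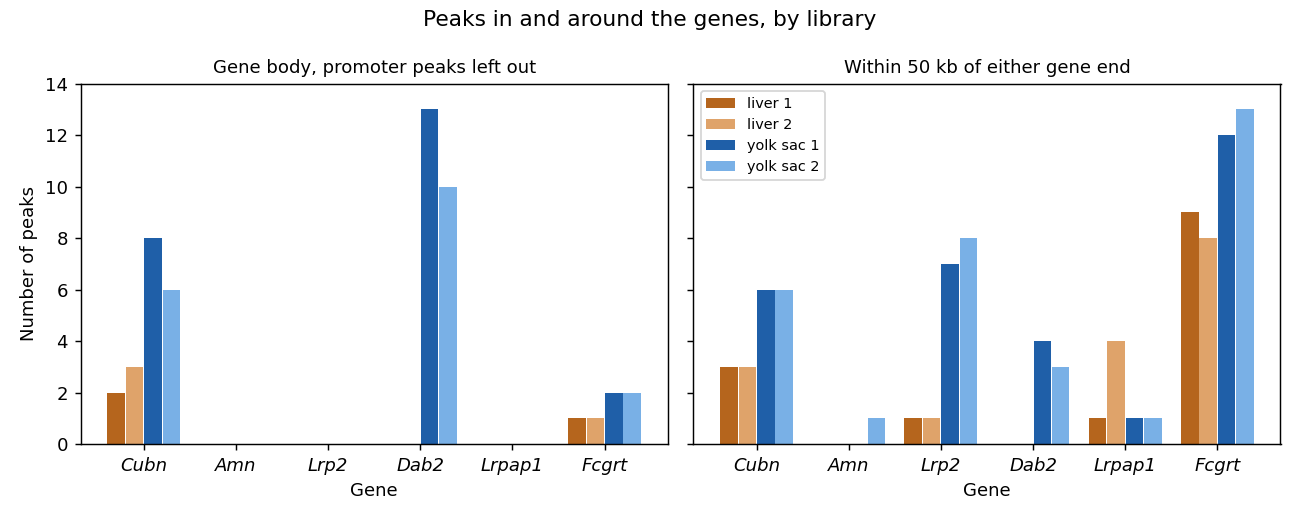
Number of peaks in the gene body without promoter peaks (left) and within 50 kb of either gene end (right), 1 bar per library, for each of the 6 genes. Yolk sac bars are higher for Cubn, Dab2 and Fcgrt in the body, and for Cubn, Lrp2, Dab2 and Fcgrt in the flanks.

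Over the 6 genes, 3 had more body peaks in each yolk sac library than in each liver one, against 17.4% of all coding genes, and 1 (Dab2) did with lists of equal length, against 5.43%. For flanking peaks 4 of 6 did, against 41.8%, and with lists of equal length 2 did (Lrp2 and Dab2), against 12.6%. The length covered by peaks in the whole locus was greater in yolk sac at 5 of 6 genes, against 54.2%, and with lists of equal length at 4 of 6, against 35.3%. At Dab2 it was 552 and 2204 bp in liver and 21886 and 15980 bp in yolk sac, and at Lrp2 1204 and 402 bp against 12516 and 9018 bp. At Lrpap1 the tissues overlapped, with 2656 and 4060 bp against 3556 and 2256 bp. The 6 loci held 72 merged regions, of which 27 (37.5%) were yolk-sac-only, 17 were called in all 4 libraries and 2 were liver-only. Of all 61095 merged regions in the genome, 33% were yolk-sac-only, 25.7% were called in all 4 libraries and 6.62% were liver-only. Dab2 contributed 13 of the 27, Lrp2 6, Cubn 4, Fcgrt 3 and Amn 1, and the Lrpap1 locus had none. In all, 24 tests were made of the measures of these genes. None could pass a threshold, and the smallest p after Benjamini-Hochberg adjustment was 0.533 (exact permutation tests).

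The wider pathway was examined through lists of 88 genes in all. All 4 libraries had promoter peaks at 79 of them, against 53.8% of all coding genes. Of the 88 genes, 3 (3.41%) were yolk-sac-only, against 5.25% of all coding genes, and none was liver-only, against 1.01%. Called in all 4 libraries were all 17 genes of the clathrin coat and its adaptors, all 17 of endosome sorting and recycling, all 8 of vitamin B12 handling inside cells and all 12 endoderm transcription factors. At equal list length 67 of the 88 genes were called in all 4 libraries, against 46.7% of coding genes. Then 1, Sorl1, was yolk-sac-only, against 2.61%, and 3 (Alb, Gc and Fcgr2b) were liver-only, against 3.01%. The LDL receptor family list then had 8 and 9 of 11 promoters called in liver and 7 and 9 in yolk sac, and the list of other uptake receptors 8 and 7 of 11 in liver against 6 and 7.

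Among 11 relatives of Lrp2 in the LDL receptor family, 8 had promoter peaks in all 4 libraries, including Lrp1. Sorl1, a sorting receptor, was yolk-sac-only, at the 94.7 and 81.5 percentiles, and Lrp1b had no peak in any library. Of 11 other uptake receptors and partners, 7 were called in all 4 libraries, among them B2m, the light chain of the Fcgrt receptor, at the 48.1 and 60.9 percentiles in liver and the 84.9 and 63.7 percentiles in yolk sac. Cd320, the receptor for transcobalamin with vitamin B12, and Stab1, a scavenger receptor, were yolk-sac-only, at percentiles of 22.5 and 27.3 and of 34.8 and 38.7. Both calls were lost with lists of equal length. Of 12 ligands and cargo proteins, 10 were called in all 4 libraries. Cblif, the intrinsic factor that cubilin binds, had no promoter peak in any library, whereas Tcn2, transcobalamin, had one in all 4. Folr1, a folate receptor, resembled Lrp2 in its calls, with percentiles of 6.86 in liver replicate 1 and 48.2 and 44.3 in yolk sac and no peak in liver replicate 2.

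The endoderm transcription factors were compared by rank. At 7 of 12 the score percentile was higher in each yolk sac library than in each liver one, against 34.4% of genes called in all 4 libraries, and at 2 of 12 it was higher in both liver libraries, against 22.1%. The list median was 48.8 and 43.4 in liver and 75.1 and 72.1 in yolk sac, where the median of all 11805 genes was 68.5 and 68.7 in liver and 72.8 and 73.4 in yolk sac. At equal list length 11 of 12 were called in all 4 libraries, 4 were higher in yolk sac against 12.9% of genes, and 4 were higher in liver against 52.3%. The list median was then 39.8 and 45.2 in liver and 50.2 and 51.1 in yolk sac, beside 70.1 and 71.1 and 49.7 and 57.9 over 10255 genes. Of the 17 endosome sorting genes, 1 was higher in yolk sac and 6 in liver, and with lists of equal length 1 and 10 of the 15 still called in all 4.

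**Figure D5:**
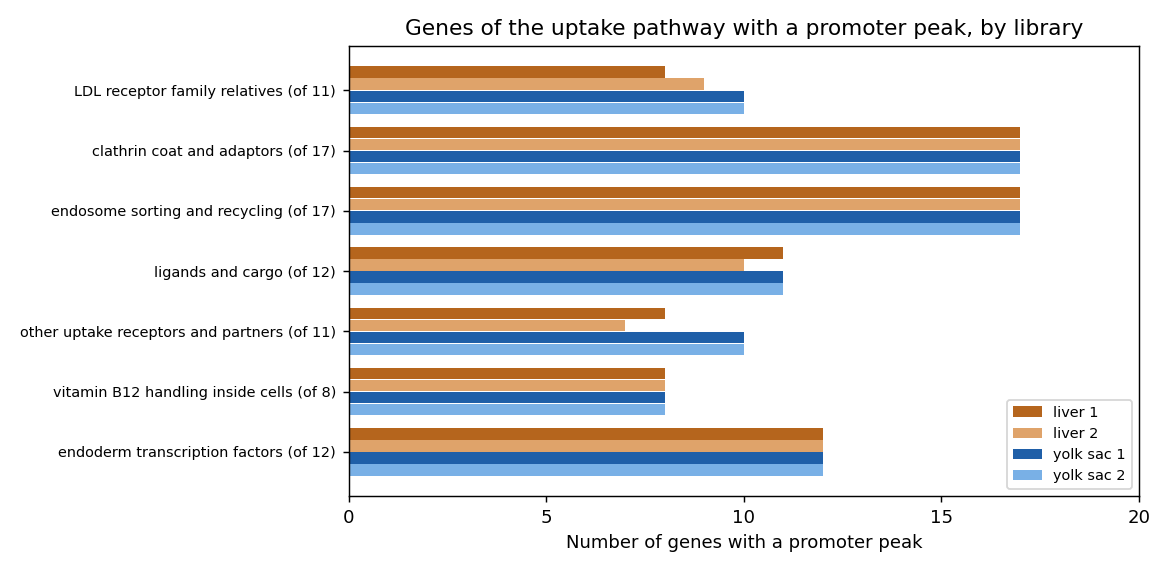
Number of genes with a promoter peak (horizontal axis) in each list of the uptake pathway (vertical axis, with the list's size), 1 bar per library. The bars are equal between libraries for the clathrin, endosome, vitamin B12 and transcription factor lists and shorter in liver for the receptor lists.

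The genes most like each of the 6 in promoter score percentile over the 4 libraries were found by the mean absolute difference, with 0 for a missing peak. For Cubn they were Lmntd1, Prss30 and Rnf138rt1, at 0.401 to 0.635 percentile points. For Amn they were Plscr2, Sema3b and Zic4, at 0.295 to 0.470 points. Calml4, Tmem88 and Oasl1 were nearest to Lrp2 at 2.90 to 3.66 points, and Adamts5, Rubcnl and Fbln2 to Dab2 at 3.29 to 3.84 points. Cct2, Ddx51 and Noc4l were nearest to Lrpap1 at 1.43 to 1.66 points, the last pair with shared peaks and identical values. Ahctf1, Nf1 and Cpsf6 were nearest to Fcgrt at 1.62 to 1.77 points. None of the 6 genes was among the nearest of another.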

How the data were processed

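PRO-seq libraries from liver (2) and yolk sac (2) of mouse embryos at stage E14.5 were analysed, grouped by their titles. The deposited files are 1 BED list per library with a score per peak. The score is the authors' deposited value, without a stated unit or scaling between libraries, and was used only to rank peaks within a list. Per the submitters' processing notes, mm10, Bowtie2 and bedtools were used. The peak caller's version and filters are not given in the sources used here, although the file names carry the word dREG. The lowest score was 0.80 and the smallest gap between peaks 548 bp in every list, so nearby calls may have been joined or dropped. Lists were not pooled over replicates, and no read counts were used.

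Peaks were placed on GENCODE M21 (GRCm38, the build of mm10). At their deposited positions, 33.5% to 55.8% of a list's peaks lay within 500 bp of an annotated start, and 11.1% to 14.6% after a shift of 5000 bp. Promoter peaks lay within 500 bp of any start of a gene, and the highest-scoring one gave its width and percentile. Other peaks were placed by midpoint in the gene body or within 50 kb, and promoter peaks were counted in neither. Peaks of the 4 lists that overlapped by 1 bp were merged into regions. All coding genes were processed alike. Tissues were compared by exact two-sided permutation tests over 6 assignments of libraries, using Python 3.11.15 and numpy 2.4.6. The code for the gene calls was checked on simulated lists with planted promoter peaks, which gives no support to the calls themselves. The alternatives were score filters, other windows, flanks and merging, single libraries left out, and a block for the replicate number. Named were the 6 genes, coding neighbours, tissue-only genes of the lists, the leading tissue-only region of each locus (all where there were at most 3 in a direction), and the 3 genes most like each gene. The genes, lists, rules and tests were chosen with earlier results of these data known, and support nothing by themselves. Genome sequence of peaks and protein sequences were not used here. Some genes that the naming rule covers are not reported here.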

Additional observations from a re-analysis of the deposited data

How the results depend on the processing

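No alternative changed which tissue was ahead at the promoters of Cubn and Amn, and none of the 6 genes became liver-only. When every list was shortened to its 24333 best-scoring peaks, the number of genes higher in yolk sac fell from 2 to 1 for promoter width, from 1 to 0 for score percentile, from 3 to 1 for body peaks and from 4 to 2 for flanking peaks. Yolk-sac-only regions fell from 27 to 12, and yolk-sac-only genes of the pathway lists from 3 to 1, while liver-only ones rose from 0 to 3. In an alternative added after the data were seen, the endoderm transcription factors higher in yolk sac fell from 7 to 4. The differences between tissues then reversed for body peaks at Cubn (-1.5) and Fcgrt (-1) and for flanking peaks at Cubn (-0.5) and Fcgrt (-1.5). With the higher-scoring 50% of each list yolk-sac-only promoter calls rose from 2 to 3 with Lrp2, and Dab2 kept its promoter peak in 1 of the 2 liver libraries. The numbers were 1 for width, 0 for score percentile and 1 for body peaks, with 15 yolk-sac-only regions and 9 pathway genes. They stayed at 4 for flanking peaks and 5 for covered length. Under this filter the differences at Cubn and Fcgrt were 1 and 2.5 for flanking peaks and 0.5 and 0 for body peaks. The share of yolk-sac-only regions over the genome was not computed with either kind of shortened list, so these falls in region number have no background. Gene counts in all other repeats, and for width with lists of equal length, likewise have no share over all coding genes here. With only the outermost start, width gave 1 and score percentile 0, because Dab2 has no peak there. The cause of the other changes was not tested, beyond fewer peaks being kept.

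Leaving out 1 library at a time gave 3 to 5 yolk-sac-only pathway genes (5 without liver replicate 1) and 1 to 2 genes higher in score percentile (2 without liver replicate 2, when Lrp2 had a peak in every library left). Without yolk sac replicate 1 there were 36 yolk-sac-only regions, and without yolk sac replicate 2 there were 40, again with no share over the genome computed. Signs reversed in these repeats only where the tissues overlapped. The difference, yolk sac minus liver, ranged from -17.0 to 3.62 points for the Fcgrt score percentile, from -550 to 1350 bp for the Lrpap1 width and from -1154 to 250 bp for the Lrpap1 covered length. That covered length difference was 224 bp with the higher-scoring 50% and 851 bp over the gene body only, and the Lrpap1 flanking difference was 0.5 peaks with a flank of 20 kb.

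Same-numbered libraries did not deviate together in promoter score percentile or width (correlations of -0.0106 and 0.00264 over 11805 genes). This cannot tell whether same-numbered liver and yolk sac libraries came from the same embryos, since 2 organs of the same embryos need not deviate together. With the replicate number as a block, the numbers of genes higher in yolk sac were 2 for width, 1 for score percentile, 3 for body peaks, 4 for flanking peaks and 5 for covered length, as without it, and the smallest possible p was 0.5. Counting promoter peaks in the flanks, an alternative added after the data were seen, also gave 4.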
